A study of Schizosaccharomyces pombe with 6 samples.

Results

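The fission yeast count table held 60 rows for small nucleolar and small nuclear RNAs, chosen because their identifier starts with SPSNORNA (53 rows) or SPSNRNA (7 rows), out of 7268 features. RNA was sequenced from wild-type cells (strain EHB7, mating type h+, with the alleles ade6-210, leu1-32 and ura4-D18 and, at the outer repeats of a centromere, otr1R:ade6+) and from cpn1∆ cells (strain EHB7577), which carry the same alleles and in addition cpn1::HygMX6, a hygromycin cassette in place of cpn1, the gene of the fission yeast Caprin protein. Each genotype was 1 strain with 3 biological replicates, grown to log phase at 32 °C in rich medium, and the study selected polyadenylated RNA before making the libraries. The comparison asks how transcripts differ when cpn1 is deleted. The libraries held 26461217 to 32916622 counts, and cpn1 itself gave 7543, 8990 and 9034 counts in wild-type cells and 169, 182 and 194 in cpn1∆ cells, a fall by 5.60 on the log2 scale.

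Small nucleolar RNAs (snoRNAs) work in the nucleolus as guides bound to protein. Box C/D snoRNAs guide methylation of ribosomal RNA and carry a C box near the start and a D box near the end, box H/ACA snoRNAs guide pseudouridylation and end shortly after an ACA, and a few, among them U3, U14 and U17, take part in cutting the ribosomal RNA precursor. The small nuclear RNAs U1, U2, U4, U5 and U6 form the core of the spliceosome. The mature forms of both kinds normally carry no poly(A) tail, whereas precursors and RNAs on the way to trimming or decay in the nucleus can be polyadenylated, so that a polyA-selected library does not measure the mature pools.

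The annotated sequences of 4 snoRNAs, from RefSeq's ASM294v3 genome build, are shown. snR40 and snoR54b are the rows called higher in cpn1∆ cells below, in calls that some alternative settings lost. snoU14 is the row with the most counts, and snoR54 shares its name with snoR54b. They are written 5′ to 3′ in the DNA alphabet on the RNA's own strand, and capitals mark TGATG (the core of a C box) within the first 20 bases and CTGA (a D box) within the last 20.

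snR40: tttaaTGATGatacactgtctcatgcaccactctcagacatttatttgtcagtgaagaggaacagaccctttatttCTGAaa
snoR54b: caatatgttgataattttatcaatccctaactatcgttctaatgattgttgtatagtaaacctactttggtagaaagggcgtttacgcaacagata
snoR54: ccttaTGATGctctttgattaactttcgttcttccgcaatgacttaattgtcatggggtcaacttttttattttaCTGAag
snoU14: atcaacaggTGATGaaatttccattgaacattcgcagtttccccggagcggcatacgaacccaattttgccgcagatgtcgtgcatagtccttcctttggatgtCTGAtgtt

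Of the sequences shown, snoR54b was the one without either motif in these windows. Both motifs were present, on the RNA strand alone, in 23 of the 60 small RNAs and in 23 of the 32 that are no longer than the longest RNA with both (112 bases, 71.9%), against 0.106% of 6625 other annotated features searched over their first 85 bases. ACA lay within the last 20 bases of 16 of the 20 RNAs annotated as box H/ACA (80.0%) and of 27.3% of the other features. A match is a description of the letters and not of a working box, and no match says only that the letters are not in the window.

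Most of these rows had no counts. In all, 34 of the 60 rows were at 0 in all 6 libraries (33 SPSNORNA rows and 1 SPSNRNA row), 22 were counted in every library, and 4 were counted in some libraries only. A total of 0 over the 6 libraries allows a level of up to 0.0164 CPM (counts scaled to a common total of 1e+06), taking 3 counts as the limit, and in single libraries the limit was 0.0911 to 0.113 CPM. These limits cover counting error of assigned reads only. The share of rows at 0 was 56.7%, against 15.2% of the whole table, 6.26% of protein-coding genes and pseudogenes, 21.4% of the non-coding RNAs named SPNCRNA, and 26.5% of rRNA rows. All 171 tRNA rows were at 0 as well, and so were 87.0% of the 254 rows whose identifier starts with ENSRNA. Among mitochondrial rows the share was 32.5%.

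The rows at 0 were unevenly spread over the annotation. All 18 small RNAs that lie wholly inside exons of other rows of the table, on either strand, were at 0. Of 4 that lie partly inside such exons, 2 were at 0. Among the 10 inside an intron of another gene 2 were at 0, and among the 28 that overlap no other row 12 were at 0. The last set held snu6, which encodes U6, the RNA polymerase III product among the spliceosomal RNAs, and snR46, which lies in a host transcript that has no row of its own. Whether the counting used strand, and how it treated reads that fall on overlapping features or map to several places, is not given in the sources used here, so that a small RNA without reads and one whose reads went elsewhere cannot be told apart for the overlapped rows. Length differed little, with a median of 104 bases for the rows at 0 and 106.5 bases for the counted ones. By type, 14 of 20 box H/ACA RNAs, 1 of 5 spliceosomal RNAs and 19 of the other 35 were at 0.

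**Figure D1:**
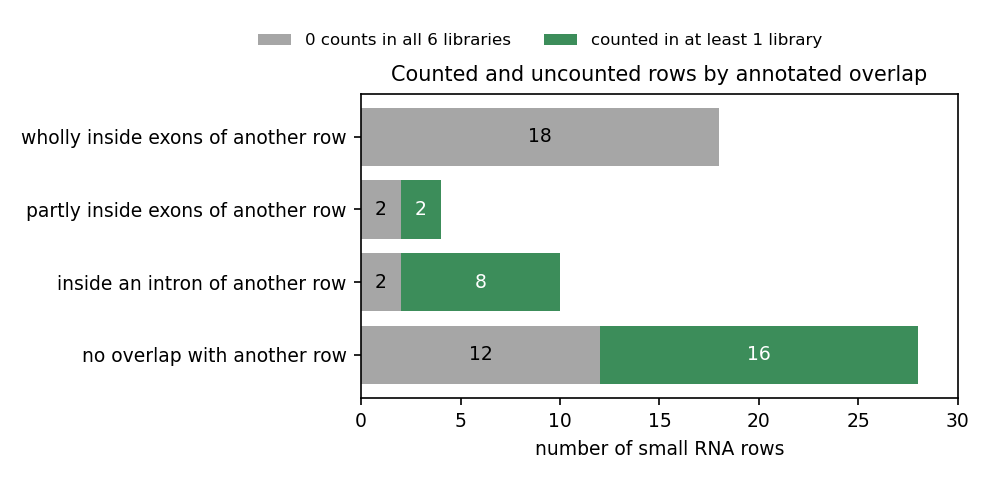
Number of small RNA rows (x axis) by their annotated overlap with other rows of the count table (y axis), with rows at 0 in all 6 libraries in grey and rows counted in at least 1 library in green. All 18 rows wholly inside exons of another row were at 0, and 16 of the 28 rows with no overlap were counted.

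Host transcripts of snoRNA clusters had counts of their own. The polycistronic precursor snoZ (SPNCRNA.659) carries snoZ3, snoZ4, snoZ5, snoZ7 and snoZ8, whose own rows were all at 0, while snoZ had 32.7 ± 2.55 CPM in the wild-type and 34.1 ± 2.17 CPM in the deletion (SD, n = 3). Its log2FC was 0.06. In total 8 host rows, most of them with a single small RNA, contain 14 of the small RNAs, wholly or in part, in their exons on the same strand. Their log2FC ran from -0.22 to 0.15, and none passed an FDR of 0.05 in edgeR in either direction. Over all features tested, 8.36% passed it with cpn1∆ higher and 10.2% with cpn1∆ lower, so no call among 8 rows says little. SPNCRNA.723, which carries snR41, snR70 and snR51b, had the lowest log2FC of the 8, with an adjusted p of 0.133 in edgeR's quasi-likelihood test.

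Among the 26 counted rows a few RNAs made up most of the signal. The pair with the highest mean count, snoU14 and snR101, held 56.8% of all small RNA counts, and the first 10 rows held 89.2%. snoU14 (SPSNORNA.21), the U14 RNA needed in budding yeast for early cleavages of the ribosomal RNA precursor, gave 605, 603 and 707 counts in wild-type replicates 1 to 3 and 676, 732 and 781 in cpn1∆ replicates 1 to 3. snR101 (SPSNORNA.52), a box H/ACA RNA, gave 501, 627 and 569 counts and 586, 643 and 524 counts in the same order. It lies wholly inside SPNCRNA.3256, a transcript annotated on the opposite strand that has no row. The part of SPNCRNA.3256 in the snR101 counts was not tested. Per kilobase of annotated length, snoU14 reached 201 CPM, snoR54b 81.7, snR101 69.4 and snoR69 37.4. These rows stood above the median over protein-coding genes and pseudogenes (36.1 CPM per kilobase). The median counted small RNA, at 8.72 CPM per kilobase, stood below it.

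The spliceosomal RNAs were near the detection limit. U5 (snu5) was the highest of them, with 9, 12 and 10 counts in wild-type cells and 10, 22 and 16 in cpn1∆ cells. U2 (snu2) gave 11, 4 and 6 counts against 9, 7 and 11, U4 (snu4) gave 2, 4 and 9 against 3, 4 and 3, and U1 (snu1) gave 2, 1 and 6 against 1, 1 and 2. U6 was at 0 in all 6 libraries. In each of U1, U2, U4 and U5 the groups overlapped. The remaining 2 SPSNRNA rows are snoRNAs by product, both copies of U3: snu3 had 3, 0 and 1 counts in cpn1∆ cells and 0 in each wild-type library, and snu32 (U3B) had 1, 2 and 1 in wild-type cells and 2, 8 and 2 in cpn1∆ cells. At these counts no difference between the genotypes was detectable. U1, U4 and U5 lie wholly inside SPNCRNA.5934, SPNCRNA.4732 and SPNCRNA.6024, and snu3 lies over 52.0% of its length inside SPNCRNA.2435. These transcripts are annotated on the opposite strand and have no row, and their part in the counts was not tested.

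**Figure D2:**
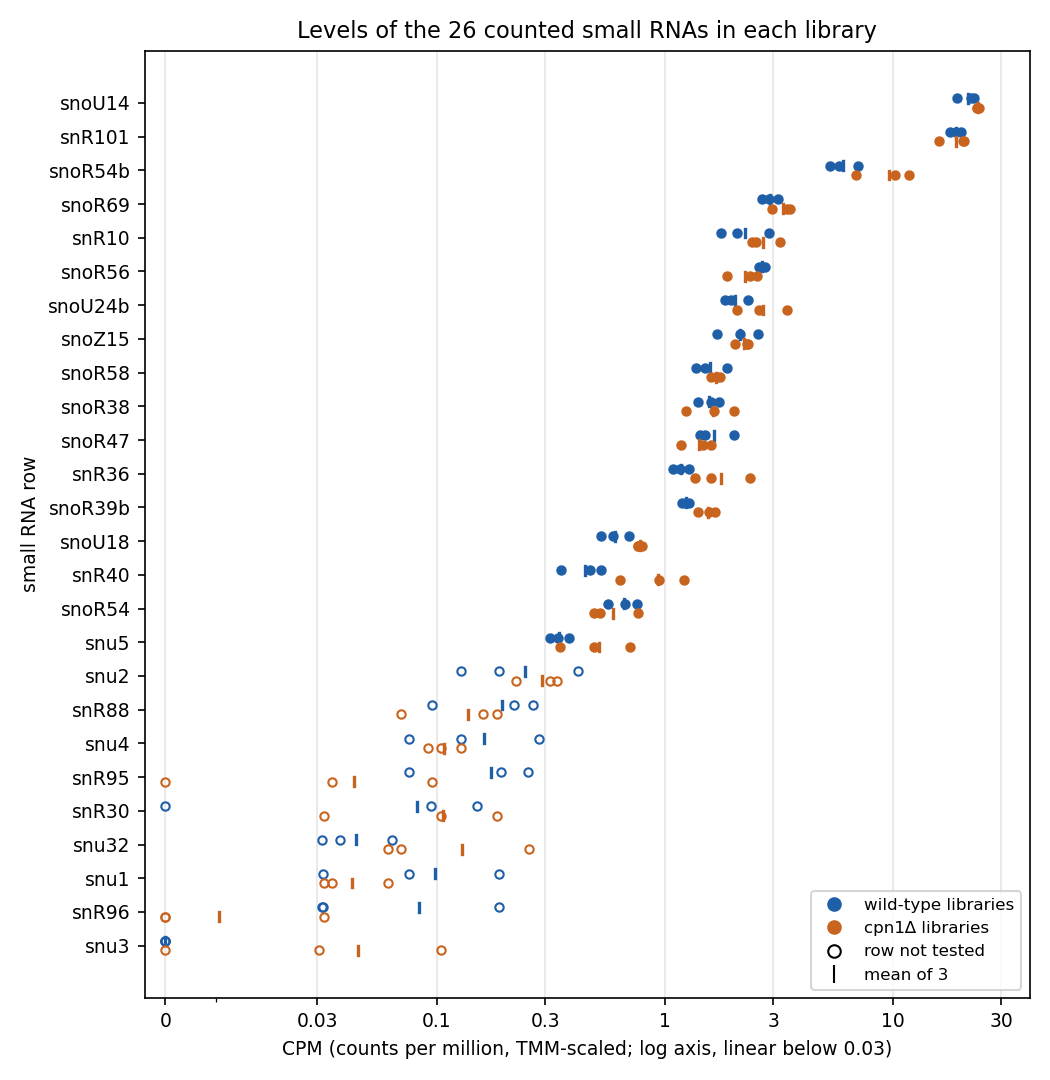
Level of each of the 26 counted small RNAs (y axis) in each library (points), in TMM-scaled CPM on a log axis that is linear below 0.03 (x axis), with wild-type libraries in blue, cpn1∆ libraries in orange and the mean of 3 as a short line. Open points mark the 9 rows with too few counts for the test, and snoU14 and snR101 lie well to the right of the others.

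The genotypes were then compared row by row. CPM values use TMM-scaled library sizes (a trimmed mean that sets most features level), log2FC is cpn1∆ over wild-type, and a row was called at an FDR under 0.05, the Benjamini-Hochberg adjusted p-value of the quasi-likelihood test in edgeR over all 5812 features tested. Enough counts for the test were present in 17 of the 60 small RNAs. Of these, 16 met the count minimum in all 3 libraries of both genotypes, and snu5 met it in 2 wild-type and 3 cpn1∆ libraries. In these 17 rows, 2 were called higher in cpn1∆ cells (11.8%, against 8.36% of all features tested) and 0 were called lower (against 10.2%). No row was lower at an unadjusted p under 0.05, and DESeq2 and limma voom also called 0 lower. In either direction, 3 of the 17 rows had an unadjusted p under 0.05 in edgeR's quasi-likelihood test, against 1826 of the 5812 features tested. With the added requirement of a log2FC above 1, 1 row, snR40, was called, against 0.31% of all features. The paper applied both of these thresholds, and snR40 is not in its list of higher transcripts. In CPM the libraries did not overlap, with cpn1∆ higher, in 5 rows (17.3% of all features) and, with cpn1∆ lower, in 1 row (18.1%).

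snR40 (SPSNORNA.01), an RNA of 82 bases on chromosome I that overlaps no other annotated feature, rose in cpn1∆ cells. It gave 14, 11 and 15 counts in wild-type replicates 1 to 3 and 35, 20 and 31 in cpn1∆ replicates 1 to 3. All 3 cpn1∆ libraries lay above all 3 wild-type libraries. The level was 0.450 ± 0.0905 CPM in the wild-type and 0.935 ± 0.290 CPM in the deletion (SD, n = 3), and the log2FC was 1.05 (standard error 0.33, adjusted p = 0.0376 in edgeR's quasi-likelihood test). The call rested on few counts. It was lost with DESeq2 (adjusted p = 0.0727), without a low-count filter (adjusted p = 0.0525 in edgeR) and without any 1 of 5 of the libraries, with adjusted p-values of 0.0624 to 0.146 in edgeR, and was kept without cpn1∆ replicate 2 (adjusted p = 0.0228 in edgeR). The nearest row of the table, SPNCRNA.645 on the opposite strand, had 4, 2 and 0 counts in wild-type cells and 0, 7 and 2 in cpn1∆ cells. A closer annotated transcript, SPNCRNA.2172, lies 19 bases away on the same strand and has no row, and its part in the snR40 counts was not tested.

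snoR54b (SPSNORNA.14), also on chromosome I and without an overlapping feature, rose as well. Its counts were 187, 182 and 169 in wild-type cells and 294, 369 and 225 in cpn1∆ cells. In CPM, cpn1∆ replicate 3 lay below wild-type replicate 1, so the groups overlapped, and cpn1∆ replicates 1 and 2 lay above all others. The level was 6.05 ± 0.905 CPM in the wild-type and 9.63 ± 2.50 CPM in the deletion (SD, n = 3), and the log2FC was 0.68 (standard error 0.18, adjusted p = 0.0166 in edgeR's quasi-likelihood test). DESeq2 also called it (adjusted p = 0.000764). The call was lost without wild-type replicate 2, without cpn1∆ replicate 1 or without cpn1∆ replicate 2 (adjusted p = 0.0506, 0.0641 and 0.0895 in edgeR). An annotated transcript on the same strand, SPNCRNA.3895, lies 71 bases away and has no row, and its part in the snoR54b counts was not tested. The name-sharing snoR54, in an intron of gua1, had 20, 21 and 18 counts in wild-type cells and 15, 24 and 16 in cpn1∆ cells, and its log2FC of -0.15 missed the threshold (adjusted p = 0.784 in edgeR).

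The 15 other tested rows were not called, with log2FC from -0.25 to 0.59 and adjusted p-values from 0.116 to 0.992 in edgeR's quasi-likelihood test. snR36, a box H/ACA RNA and in budding yeast a pseudouridylation guide, had the largest value, with 31, 34 and 41 counts in wild-type cells and 39, 74 and 52 in cpn1∆ cells. In CPM its groups did not overlap, and its log2FC was 0.59 (standard error 0.25, adjusted p = 0.116 in edgeR). snR36 also lies partly, over 52.4% of its length, inside an exon of psd1 on the opposite strand. The log2FC of U5 was 0.58 (standard error 0.36, adjusted p = 0.298 in edgeR), and snoU24b, related by name to the U24 methylation guide, had 0.38 (standard error 0.21, adjusted p = 0.232 in edgeR).

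The most precisely measured rows gave small values. snoU14 had 21.4 ± 1.92 CPM in the wild-type and 23.6 ± 0.290 CPM in the deletion (SD, n = 3), and its log2FC was 0.14 (standard error 0.07, adjusted p = 0.176 in edgeR) without overlap between the libraries in CPM. snR101 had 18.9 ± 1.08 and 19.0 ± 2.54 CPM, and its log2FC was 0.00 (standard error 0.09, adjusted p = 0.992 in edgeR). Of the next rows by level, snoR69 (log2FC 0.19), snR10 (0.25), snoZ15 (0.05), snoR58 (0.08) and snoR38 (0.04) had overlapping libraries. snoR69 and snR10 lie wholly inside SPNCRNA.4432 and SPNCRNA.7137, transcripts on the opposite strand without a row, whose part in the counts was not tested. snoR58 lies in an intron of ade4 (an amidophosphoribosyltransferase), and snoR38 in an intron of SPAC29A4.02c (a translation elongation factor subunit). snoR56 was the only tested row whose cpn1∆ libraries all lay below the wild-type ones in CPM, with 69, 84 and 88 counts before scaling against 73, 59 and 77, and it had a log2FC of -0.25 (adjusted p = 0.346 in edgeR). Over the 17 rows the log2FC was above 0 in 14, with a median of 0.19, against 52.3% of all features tested and their median of 0.01.

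**Figure D3:**
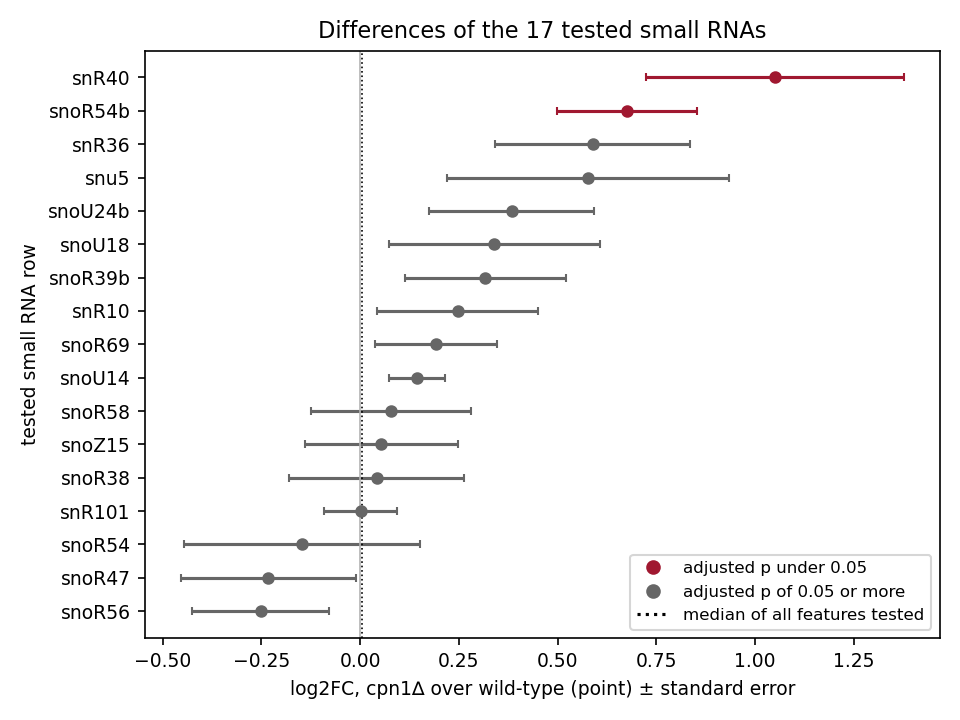
log2FC (cpn1∆ over wild-type, x axis) of the 17 tested small RNAs (y axis), with points for the estimate and bars for ± 1 standard error from edgeR's quasi-likelihood fit. The 2 rows with an adjusted p under 0.05, snR40 and snoR54b, are in red, and the dotted line is the median of all features tested (0.01).

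Summed over all 60 rows, the small RNAs gave 1864, 2073 and 2226 counts in wild-type replicates 1 to 3 and 2335, 2481 and 2326 in cpn1∆ replicates 1 to 3. In CPM these were 70.3, 66.1 and 69.8 against 81.2, 79.2 and 71.3. All cpn1∆ sums lay above all wild-type sums, but cpn1∆ replicate 3 was close to the highest wild-type library. The means were 68.8 ± 2.30 and 77.2 ± 5.27 CPM (SD, n = 3), a difference of 12.3% that is given as a description, with no test. The SPSNORNA rows alone gave 67.9 ± 2.16 and 76.1 ± 5.26 CPM. The 7 SPSNRNA rows gave 0.894 ± 0.142 and 1.13 ± 0.190 CPM, from 25, 23 and 32 against 28, 42 and 35 counts, and their groups overlapped.

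The difference in the sum was spread unevenly over the rows. Without snR40 and snoR54b, left out after their values were seen, the means were 62.3 ± 2.08 and 66.7 ± 3.18 CPM (SD, n = 3), and the groups overlapped. Without snoU14 alone they were 47.3 ± 0.400 and 53.6 ± 5.53 CPM, and the groups overlapped too, since cpn1∆ replicate 3 (47.3 CPM) lay below wild-type replicates 1 and 3 (47.5 and 47.6 CPM). Without both snoU14 and snR101, a choice made after seeing the data, they were 28.4 ± 1.46 and 34.6 ± 3.08 CPM, with no overlap. The 20 box H/ACA RNAs gave 22.7 ± 0.611 and 23.6 ± 2.86 CPM, and the 10 intronic RNAs gave 11.5 ± 0.746 and 12.6 ± 1.30 CPM, both with overlapping groups. The 18 RNAs that overlap no other annotated feature gave 31.3 ± 2.71 and 37.1 ± 1.95 CPM, without overlap. Of these 18, 9 were at 0 in all 6 libraries. snoU14 and snoR54b made up most of this sum, which also holds snR40, and the set was not summed without them. The 9 counted rows that were too low to test went the other way, with 1.08 ± 0.355 CPM in the wild-type against 0.914 ± 0.0687 CPM in the deletion, and overlapped. Each sum holds the counts that were assigned to these rows, and the part of host or opposite-strand transcripts in them was not tested. A change in the number of RNAs and a change in the share of them that is polyadenylated cannot be told apart here.

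**Figure D4:**
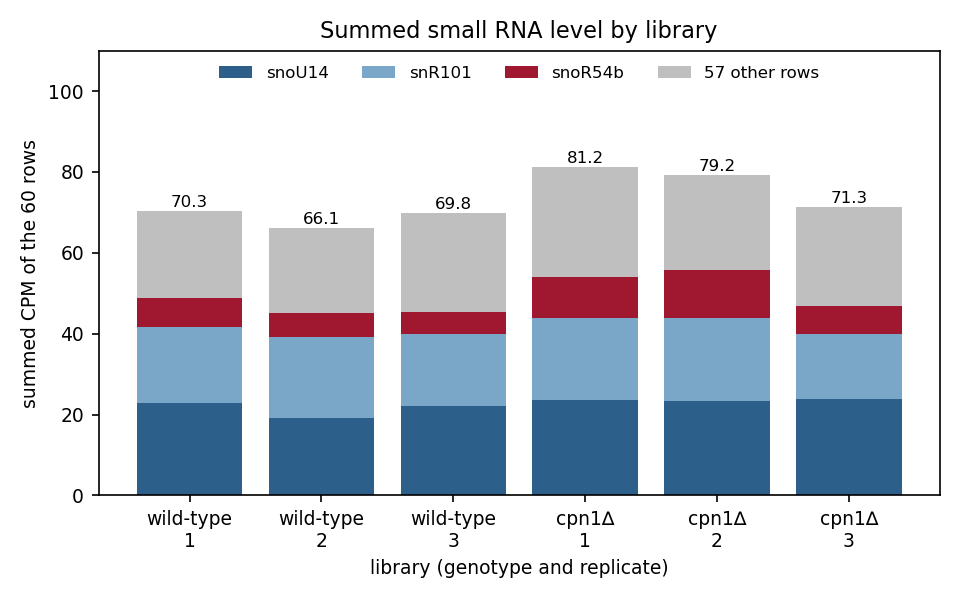
Summed small RNA level (CPM, y axis) in each library (x axis), stacked by row, with snoU14, snR101 and snoR54b shown separately and the 57 other rows in grey. The 3 cpn1∆ libraries reached 81.2, 79.2 and 71.3 CPM, against 66.1 to 70.3 CPM in the wild-type libraries.

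Intronic snoRNAs were compared with their host genes, since such RNAs are normally released from the spliced intron. Of the 10 intronic rows 8 were counted, and their mean level ranged only from 0.628 to 2.37 CPM, while the hosts of these 8 ranged from 29.6 to 3175 CPM. snoU24b, in an intron of cpc2 (the ribosomal RACK1 protein), gave 0.745 counts per 1000 counts of its host, and snoR54, in an intron of gua1 (IMP dehydrogenase), gave 0.355. By contrast snoZ15, in an intron of the 3′ UTR of pfd1 (a prefoldin subunit), gave 73.6 per 1000. The 2 intronic rows at 0, snoR39a in rlp7 and snoU24 in spt20, have hosts at 382 and 13.3 CPM. Levels of host and snoRNA are given here without division by length.

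Host genes differed little between the genotypes. Of the 10 hosts, ero11 (an ER oxidoreductin) was called higher, with a log2FC of 0.12 (adjusted p = 0.0150 in edgeR), and gua1 was called lower, with -0.13 (adjusted p = 0.0142 in edgeR). At 1 of 10 in each direction, these calls lay near the shares over all features tested (8.36% higher and 10.2% lower). Each of these calls was lost without cpn1∆ replicate 1 or without cpn1∆ replicate 2, with adjusted p-values of 0.0563 to 0.0662 in edgeR. Their snoRNAs, snoU18 (log2FC 0.34) and snoR54 (-0.15), were not called, and none of the 8 tested intronic snoRNAs was. The lowest adjusted p among these 8 was 0.232 in edgeR. The libraries of snoU18 did not overlap, with 14, 22 and 19 counts in wild-type cells and 23, 24 and 25 in cpn1∆ cells.

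**Figure D5:**
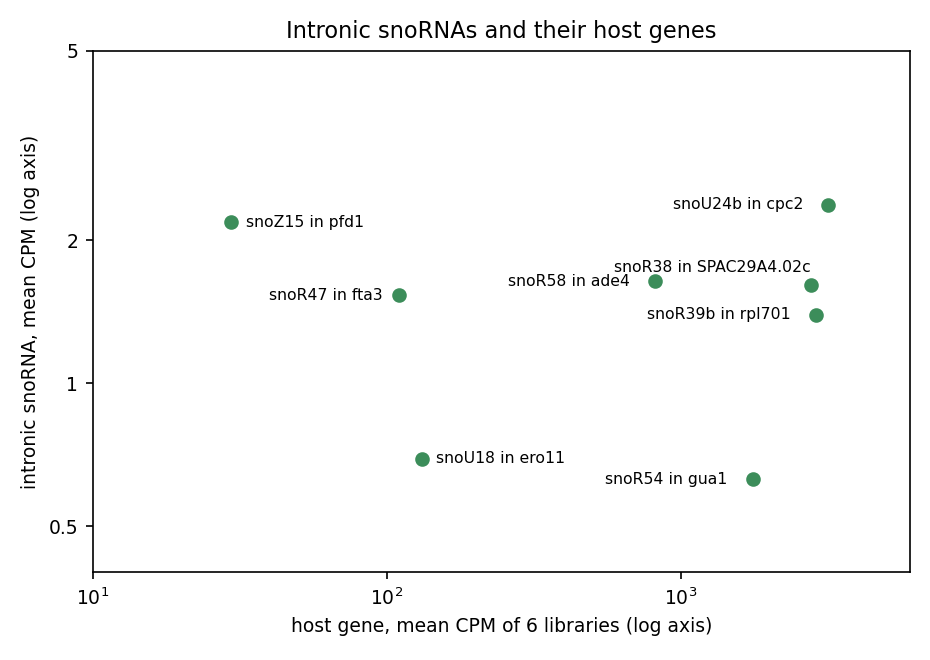
Mean level over 6 libraries of the 8 counted intronic snoRNAs (CPM, log y axis) against that of their host genes (CPM, log x axis), 1 point per pair. The hosts span 29.6 to 3175 CPM and the snoRNAs 0.628 to 2.37 CPM.

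The proteins that bind or trim these RNAs were followed in 5 lists, 37 genes in all, of which 35 were tested. In total 4 were called higher and 6 lower in cpn1∆ cells, with a median log2FC of -0.01, beside the background shares of 8.36% and 10.2%. Of the 4 box C/D core proteins none was called in either direction, and neither was any of the 6 tested Sm proteins, which form the ring on spliceosomal RNAs. Among box H/ACA proteins naf1, an assembly factor, was called lower by a small margin (log2FC -0.09, adjusted p = 0.0486 in edgeR), a call lost in 10 of 17 alternatives. shq1, another assembly factor, had a log2FC of 0.68 that missed the threshold (standard error 0.28, adjusted p = 0.111 in edgeR), and 95.2% of its exon bases lie inside exons of other rows. cbf5, the pseudouridine synthase, and the Sm gene smf1 were listed at 0, and both lie wholly inside exons of other rows.

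Of the 8 LSm proteins, which bind U6 or act in mRNA decay, lsm6 (log2FC 0.14), lsm3 (0.12) and lsm1 (0.10) were called higher and none lower. Their adjusted p-values in edgeR were 0.0391, 0.0209 and 0.0317. Over all features tested, 8.36% were called higher and 10.2% lower. Of 12 genes of 3′-end processing and nuclear decay, 1 was higher and 5 were lower. The lower ones were mtr4, an RNA helicase that feeds the exosome (-0.26), dis3 and rrp6, nucleases of the nuclear exosome (-0.25 each), red1, of the MTREC complex (-0.11), and pla1, the poly(A) polymerase (-0.11). The higher one was pab2, the nuclear poly(A)-binding protein that takes part in snoRNA 3′-end processing in fission yeast (0.11, adjusted p = 0.0202 in edgeR). mtr4, dis3 and rrp6 were called in all 17 alternatives run, whereas without cpn1∆ replicate 3 none of the 35 genes was called higher. Without wild-type replicate 3, 1 gene was. With wild-type replicate 2 or cpn1∆ replicate 2 left out, 2 were called higher and 3 lower. Of the 17 alternatives, the call changed in 6 for lsm1, in 5 each for lsm6 and red1, and in 3 each for lsm3, pla1 and pab2. The part of these proteins in the small RNA values was not tested.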

How the data were processed

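RNA was polyA-selected and sequenced in paired-end reads. Per the paper's methods and the submitters' processing notes, the authors removed adapters with Cutadapt 4.8, aligned with STAR 2.7.10b to ASM294v2, counted with featureCounts and tested with edgeR 3.42.4. As deposited by the authors, the values are expected counts per feature, estimated from the alignments and not normalized, and 760 features hold fractions, none of them a small RNA. The planned design assumed whole counts, so values were rounded. The row other (0.608% to 0.647% of a library) was left out.

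Features kept by filterByExpr (minimum count 10) were TMM-scaled and tested with glmQLFit (legacy FALSE) and glmQLFTest in edgeR 4.0.16 (R 4.3.3), after a test on simulated data. A standard error is the size of the log2FC over the root of the F statistic. Names, overlaps, lengths and sequences come from RefSeq's ASM294v3, not the build of the counting, so no coordinates are given. All 60 small RNAs and 6846 of 7268 features matched by identifier, and tables were joined in Python 3.11.15 with pandas 2.3.3.

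Named are all SPSNRNA rows, called rows, the 10 rows highest in mean CPM, the 3 largest uncalled changes, features that overlap or host them, and up to 3 genes of each protein list. Further rows named were chosen after their values were seen. The small RNAs and lists were chosen with earlier results of these data known. Alternatives were other scalings (RLE, upper quartile, total counts), filters, edgeR's legacy and likelihood ratio tests, DESeq2 1.42.0, limma voom (3.58.1), a replicate block, unrounded counts and each library left out.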

Additional observations from a re-analysis of the deposited data

How the results depend on the processing

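The 2 small RNAs called higher fell to 1 without a low-count filter, with at least 1 CPM in 3 libraries and with DESeq2, and to 0 to 1 when single libraries were left out. The 1 row past a log2FC of 1 fell to 0 under the same 3 settings and ranged from 0 to 1 without single libraries. With at least 1 CPM in 3 libraries that row, snR40, was removed before the test, so its call was not tested again there. The count of lower rows was 0 throughout, and 34 rows were at 0 in all libraries whichever was left out. The log2 ratio of the sums, 0.17, was -0.24 over the counted rows too low to test and 0.28 without snoU14 and snR101, both chosen after seeing the data, and 0.13 to 0.22 without single libraries (0.13 to 0.22 for SPSNORNA rows, 0.20 to 0.43 for SPSNRNA rows). snR101, near 0, reversed with RLE scaling (-0.0015), voom (-0.0080) and the replicate block (-0.0012). Without single libraries snR101 ranged from -0.062 to 0.11, snoR38 from -0.12 to 0.21, snoR58 from -0.027 to 0.22 and snoZ15 from -0.099 to 0.22. For the protein lists, the alternatives were also added after seeing the data. Their 4 higher calls became 2 with DESeq2 and 0 to 3 without single libraries, and their 6 lower calls became 3 with total counts only and 3 to 5 without single libraries. Over all features, 486 were higher and 595 lower, against 636 and 399 with total counts only. The replicate block left 2 small RNAs called and gave 556 higher and 670 lower features. Libraries with the same number correlated at -0.0587, 0.0403 and 0.0893 in their deviations, and those with different numbers at -0.138 to 0.0988. The paper states that replicates of both genotypes were processed in parallel. Correlations this low cannot decide whether libraries with the same number were handled together.

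With 3 libraries of 1 strain per genotype, p-values measure the spread between cultures of these strains. Replicates of a genotype differed by more than sampling noise (chi-square per feature 4.68 to 11.0). Depth limits the 9 counted but untested rows, for which 4 to 48 counts were seen over 6 libraries.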

Other observations

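Several snoRNAs come in pairs that share a name, and the members of a pair were often counted unequally. snoU24b, in an intron of cpc2, had 52, 58 and 74 counts in wild-type cells and 99, 81 and 68 in cpn1∆ cells, while snoU24, in an intron of spt20, was at 0 in all 6 libraries. snoR39b, in an intron of rpl701, had 33, 40 and 38 counts in wild-type cells and 48, 44 and 51 in cpn1∆ cells, while snoR39a, in an intron of rlp7, was at 0. snoR69 had 76, 84 and 100 counts against 102, 93 and 112, while snoR69b was at 0 although it overlaps no other row. The longest run of bases shared by a pair was 10 for the U24 pair, 13 for the R39 pair, 13 for the R69 pair and 7 for snoR54 and snoR54b. For the U3 pair, snu3 and snu32, both near the detection limit, it was 31. The U24 pair was named here after its values were seen, as were the R39 and R69 pairs.

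The antisense partner of an uncounted snoRNA stood out in size. SPNCRNA.1487, on the strand opposite snR92, had 34, 56 and 58 counts in wild-type replicates 1 to 3 and 18, 24 and 30 in cpn1∆ replicates 1 to 3. Its log2FC was -1.08 (adjusted p = 0.00787 in edgeR), and the paper also lists it as lower. An FDR under 0.05 was kept in all 17 alternatives run. Without single libraries the log2FC ranged from -1.24 to -0.962, so a log2FC below -1 was not always reached. snR92 itself was at 0 in all 6 libraries, and since the use of strand in the counting is not given, reads of the pair cannot be told apart.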
